A study of Mus musculus with 8 samples.

Results

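The genes described here are 46 genes of the cell division cycle, measured as messenger RNA in the liver of 5-week-old mice. The choice was a list of symbols made with earlier results of these data known, the rule itself uses no measured level, and all 46 were found among the 19348 genes of the table. Of these, 18 act at the entry to S phase or in DNA synthesis, 25 act in G2 and mitosis, and 3 are a G1 cyclin and 2 inhibitors of cyclin-dependent kinases. The series compared whole liver of Stab1 knockout mice (5 libraries) with that of wild-type mice (3 libraries), and both groups were 5 weeks old. Stab1 encodes stabilin-1, which clears modified proteins from the blood at the lining of liver sinusoids and is also made by some macrophages. The sources used here do not give strain, sex, the construction of the knockout allele, any pooling of animals or whether each library is a separate animal. The p-values therefore measure only how much these libraries vary, and that variation may be technical.

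A cell that divides first passes through G1, where D-type and E-type cyclins drive cyclin-dependent kinases and release E2F factors, which turn on genes for origin licensing, nucleotide supply and DNA synthesis. In G2 and mitosis a later set of genes is transcribed, largely under the MuvB complex with B-Myb and FoxM1, and their products condense, align and separate the chromosomes and then split the cell. Liver grows quickly after birth, and its hepatocytes leave the cycle as the organ reaches adult size, many of them after rounds of DNA synthesis without cell division. In whole liver tissue the RNA of such genes can come from any dividing cell, and fewer cells in cycle cannot be told apart from less of the RNA in each such cell.

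The libraries held 4.85 to 10.8 M uniquely mapped reads counted over genes, the fewest in knockout library 1. Stab1 itself had 5 to 16 reads in the knockout libraries and 474 to 594 in the wild-type libraries (log2 fold change -5.38, SE 0.22, edgeR adjusted p = 3.14e-06, and p = 0.0179 by exact two-sided permutation of 56 library divisions, the smallest the design allows). Knockout library 1 had 3 Xist reads and 320 Ddx3y reads (Xist is expressed from the inactive X, Ddx3y from the Y), while each other library had at least 4445 Xist reads and at most 4 of Ddx3y, so by these reads it came from a male and the others from females. The labels do not give this. Main values without that library are given further on. Levels are in CPM (reads scaled to a common library total, after edgeR's TMM scaling, a trimmed mean over genes), group values are mean ± SD, and libraries are listed in the order of their numbers. Every adjusted p without another tool's name is that of edgeR's quasi-likelihood test over 12338 genes.

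The genes of G2 and mitosis stood lower in knockout than in wild-type liver as a set of values, and those of S phase much less so. Of 24 tested mitotic genes, 23 had a negative log2 fold change, with a median of -1.05, while of 17 tested S-phase genes 12 were negative, with a median of -0.10. Over all genes tested 50.9% were negative and the median was -0.01. A log2 fold change below -1 was found in 14 mitotic genes and in 0 S-phase genes, against 1.34% of all genes tested. Only 1 of the 44 tested members, Pttg1, passed the test over all genes, and it fell; the background was 0.154% of genes called lower. At an unadjusted p below 0.05, 15 mitotic and 4 S-phase genes were lower and 1 S-phase gene was higher, against 5.90% of all genes tested that were lower at that p. Cdc6 and Cdkn3 had too few reads to be tested, and both had most of their reads in wild-type libraries. With no filter on low counts, which takes in every member, the medians were -1.07 over 25 mitotic and -0.18 over 18 S-phase genes.

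**Figure D1:**
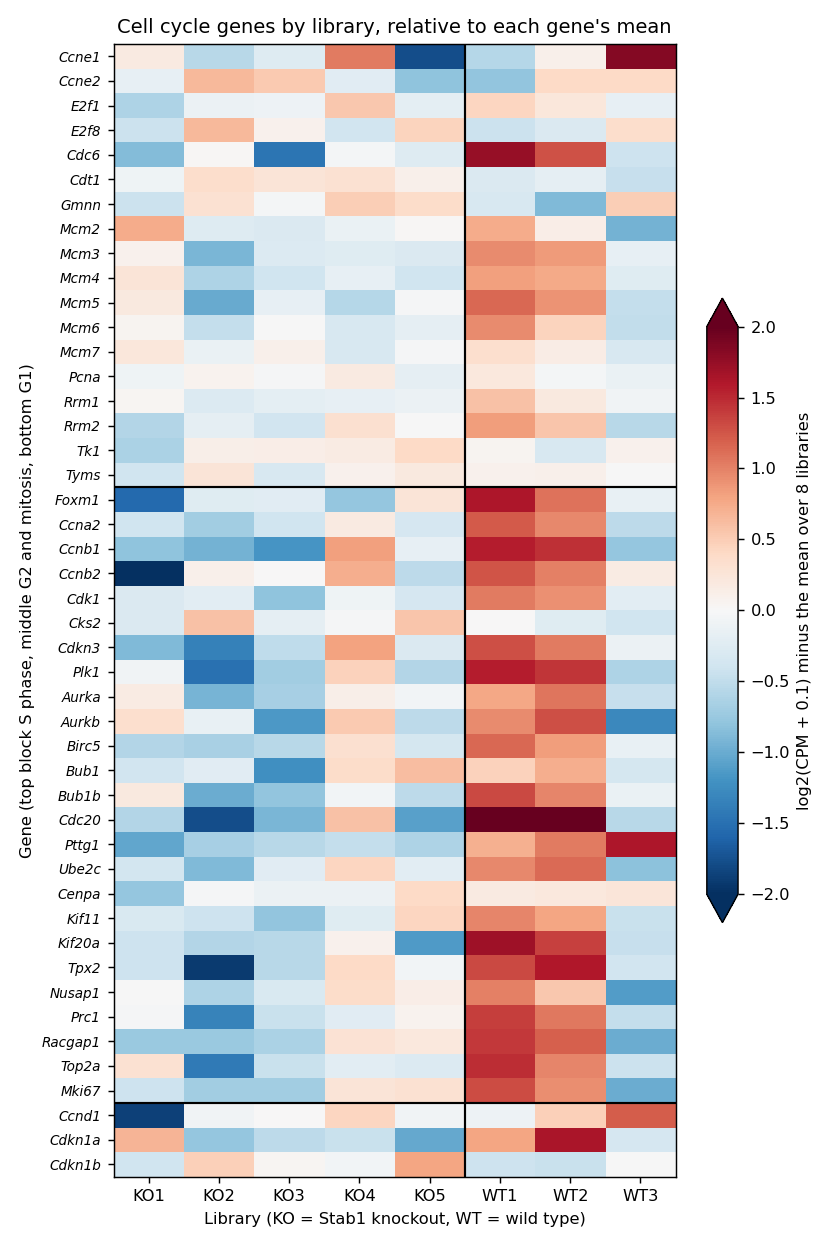
Heat map of the 46 genes (rows: 18 S-phase, 25 mitotic, 3 G1 genes) in the 8 libraries (columns), coloured by log2(CPM + 0.1) minus the gene's mean over the libraries, red above and blue below. In 21 of 25 mitotic rows the 2 highest values are those of WT1 and WT2, and some rows are also red in a knockout library. Pttg1 is the mitotic row that is reddest in WT3.

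The difference between the groups lay in wild-type libraries 1 and 2. Averaged over the 25 mitotic genes, log2 CPM was 1.18, 0.95, 1.08, 1.79 and 1.47 for knockout libraries 1 to 5 and 2.74, 2.61 and 1.26 in wild-type libraries 1 to 3. Wild-type library 3 thus lay within the knockout range. The 18 S-phase genes had means of 2.52, 2.53, 2.51, 2.68 and 2.52 in the knockout libraries and 3.0, 2.87 and 2.58 in the wild-type libraries, so the same pair of wild-type libraries was high for them, by a smaller step. For 20 of 24 tested mitotic genes and 6 of 17 tested S-phase genes wild-type libraries 1 and 2 were the 2 highest of the 8, a pattern looked for after the values were seen and present in 12.3% of all genes tested. Wild-type library 3 lay within the knockout range for 19 of all 25 mitotic genes, below it for 5 and above it only for Pttg1. The difference between the mitotic and the S-phase mean was -0.26 and -0.27 in wild-type libraries 1 and 2, -1.32 in wild-type library 3 and between -1.59 and -0.88 in the knockout libraries, on the log2 scale.

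**Figure D2:**
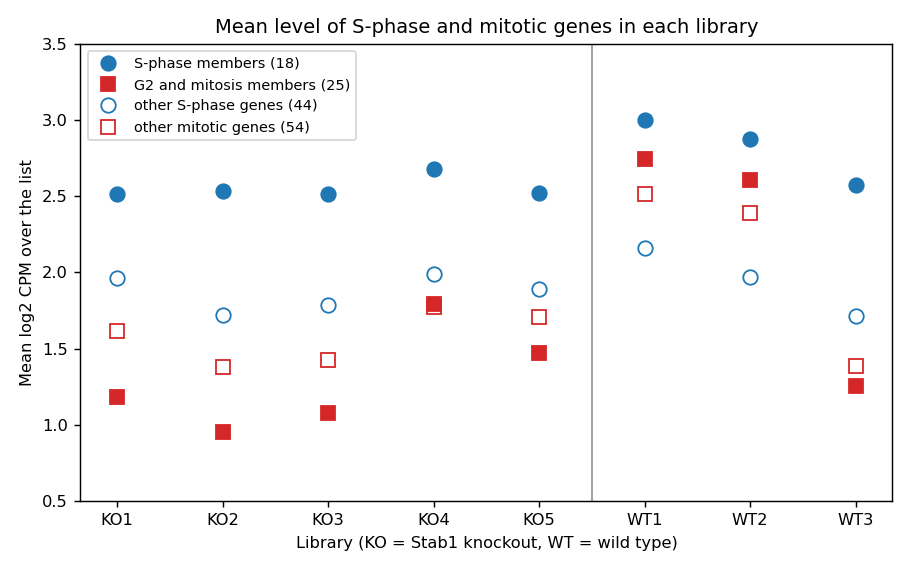
Mean log2 CPM of 4 gene lists in each library (x axis; filled symbols are members, open symbols other genes of the same phase, each list to be compared only with itself). The mitotic members stand at 2.74 and 2.61 in WT1 and WT2, against 1.26 in WT3 and 0.95 to 1.79 in the knockout libraries.

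The knockout libraries also differed among themselves in mitotic genes. Knockout library 4 was the highest of the 5 for 15 of 25 mitotic genes and knockout library 5 for 6, while knockout library 2 was the lowest for 13. The summed level of the 25 genes was 78.6, 86, 73.9, 109 and 109 CPM in the knockout libraries and 203, 181 and 90.3 CPM in the wild-type libraries. These sums came from few reads, between 402 in knockout library 1 and 2150 in wild-type library 1, and 4 of the 25 genes had 3 or fewer reads in at least 1 library. The 18 S-phase genes together had 793 to 2296 reads per library.

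Promoter windows were examined because the mitotic genes varied together across libraries, and the S-phase genes less so. The classes were set by known function and not by these values, so the motif shares cannot test why the levels varied. RefSeq windows from 250 bases before to 50 bases after a transcription start (build GRCm38.p6) were matched to 37 of the 46 genes. The windows were searched on both strands for the cell cycle genes homology region (CHR) of MuvB target genes, spelled TTTGAA, for the CCAAT box of the factor NF-Y, and for 4 spellings of an E2F site, TTTCCCGC, TTTGGCGC, TTTGCCGC and TTTCGCGC. E2F matches on opposite strands can overlap each other and were then both counted as matches. Of 20 mitotic genes with a window, 14 held a CHR match (70%), against 2 of 15 S-phase genes (13.3%) and 20.2% of the 27025 genes of the promoter table. A CCAAT box was found in 17 of the 20 mitotic genes, 9 of the 15 S-phase genes and 41.1% of all genes. An E2F spelling was found in 1 of the 20 mitotic genes, which was Cdk1, in 6 of the 15 S-phase genes and in 2.60% of all genes. A CHR match within 60 bases of a CCAAT box was present in 12 of the 20 mitotic genes and 0 of the 15 S-phase genes, against 3.91% of all genes. Such matches describe the letters of these windows and not the binding of a factor.

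Windows are shown for 6 genes that were picked by name and not by a rule on their values, in capitals where one of these motifs matched. Cdc20, Cdk1 and Plk1 hold CHR and CCAAT matches, Mcm3 and Mcm6 hold E2F and CCAAT matches, and Pttg1, the called gene, holds none of the 3 motifs. Of the mitotic members not shown, Birc5 and Nusap1 also hold none of them. The windows are Cdc20 at chr4:118437294-118437593, minus strand, Cdk1 at chr10:69352863-69353162, minus strand, Plk1 at chr7:122159185-122159484, plus strand, Pttg1 at chr11:43425932-43426231, minus strand, Mcm3 at chr1:20820263-20820562, minus strand and Mcm6 at chr1:128359656-128359955, minus strand, all in GRCm38.p6 and read 5′ to 3′ along the gene.
Cdc20: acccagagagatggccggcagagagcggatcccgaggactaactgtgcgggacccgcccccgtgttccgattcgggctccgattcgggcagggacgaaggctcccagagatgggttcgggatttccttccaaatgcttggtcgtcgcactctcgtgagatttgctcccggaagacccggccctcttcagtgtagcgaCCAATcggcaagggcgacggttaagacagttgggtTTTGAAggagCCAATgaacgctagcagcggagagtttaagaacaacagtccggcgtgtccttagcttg
Cdk1: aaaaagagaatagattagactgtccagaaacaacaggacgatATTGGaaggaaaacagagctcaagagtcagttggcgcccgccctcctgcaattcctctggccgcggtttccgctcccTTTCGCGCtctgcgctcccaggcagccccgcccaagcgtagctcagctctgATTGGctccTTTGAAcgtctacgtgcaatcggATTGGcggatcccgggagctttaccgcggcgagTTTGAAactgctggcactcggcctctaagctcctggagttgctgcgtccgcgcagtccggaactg
Plk1: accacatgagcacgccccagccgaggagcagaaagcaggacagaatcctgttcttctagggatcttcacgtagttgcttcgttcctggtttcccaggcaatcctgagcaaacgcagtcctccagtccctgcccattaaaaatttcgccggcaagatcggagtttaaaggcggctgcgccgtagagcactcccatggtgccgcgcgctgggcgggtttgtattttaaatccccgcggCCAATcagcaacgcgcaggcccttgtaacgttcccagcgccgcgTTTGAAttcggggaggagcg
Pttg1: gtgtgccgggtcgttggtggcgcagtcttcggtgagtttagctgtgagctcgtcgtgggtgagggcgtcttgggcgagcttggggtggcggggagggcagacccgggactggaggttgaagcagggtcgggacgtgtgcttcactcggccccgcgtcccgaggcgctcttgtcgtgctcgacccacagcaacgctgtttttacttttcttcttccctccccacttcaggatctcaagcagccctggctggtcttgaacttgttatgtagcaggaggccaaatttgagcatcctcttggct
Mcm3: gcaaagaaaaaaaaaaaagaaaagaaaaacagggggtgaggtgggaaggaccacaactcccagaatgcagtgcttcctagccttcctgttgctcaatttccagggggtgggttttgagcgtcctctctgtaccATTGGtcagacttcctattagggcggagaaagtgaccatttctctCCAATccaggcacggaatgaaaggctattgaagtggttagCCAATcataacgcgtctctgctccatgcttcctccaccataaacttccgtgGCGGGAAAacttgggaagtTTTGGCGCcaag
Mcm6: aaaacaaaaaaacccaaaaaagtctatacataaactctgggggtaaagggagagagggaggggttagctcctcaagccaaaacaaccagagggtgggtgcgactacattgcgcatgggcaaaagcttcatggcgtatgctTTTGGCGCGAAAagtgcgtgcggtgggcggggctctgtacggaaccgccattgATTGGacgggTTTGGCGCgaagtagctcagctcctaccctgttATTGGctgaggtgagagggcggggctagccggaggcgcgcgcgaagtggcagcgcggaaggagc

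**Figure D3:**
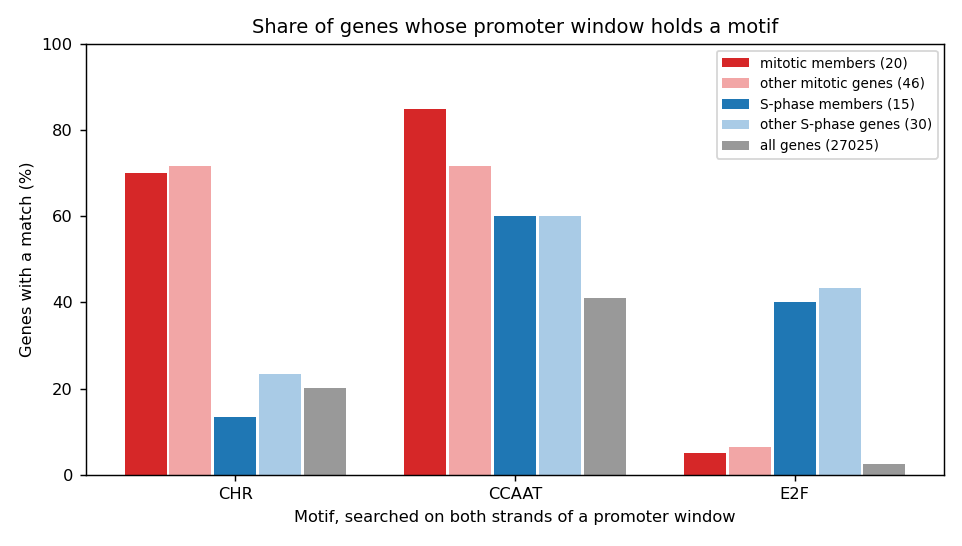
Bars give the percent of genes with a promoter window (number in brackets) that hold at least 1 match to the CHR, CCAAT or E2F spellings, on either strand. The CHR share is 70% in mitotic members and 13.3% in S-phase members, and the E2F share is 5.0% and 40%.

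The G1 cyclin and the inhibitors each had a different order of libraries. Ccnd1 encodes cyclin D1, the partner of the G1 kinases that couples growth signals to the cycle. It was at 26.4, 92.2, 97.2, 131 and 92 CPM in knockout libraries 1 to 5 and at 90.7, 135 and 224 CPM in wild-type libraries 1 to 3 (log2 fold change -0.77, SE 0.42, adjusted p = 0.419). Wild-type library 3, low for mitotic genes, held the highest value, and knockout library 1 the lowest. Cdkn1a encodes p21, a kinase inhibitor induced by p53 and other stress signals. Its levels were 6.65, 2.34, 2.83, 2.97 and 1.96 CPM in knockout and 7.18, 12.9 and 3.21 CPM in wild-type libraries (log2 fold change -1.27, SE 0.46, adjusted p = 0.333). Here wild-type libraries 1 and 2 were high, as for mitotic genes, and knockout library 1 stood near wild-type library 1. Cdkn1b encodes p27, an inhibitor that holds resting cells out of the cycle. Its levels were 18.8, 34.6, 25.3, 23.8 and 42.9 CPM in knockout and 18.6, 18.2 and 24.4 CPM in wild-type libraries (log2 fold change 0.52, SE 0.26, adjusted p = 0.39). The 2 lowest values were those of wild-type libraries 1 and 2, the highest libraries for mitotic genes, and the highest was that of knockout library 5.

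E-type cyclins and E2F factors, which act at the passage from G1 to S phase, showed no shared direction. Ccne1, which encodes cyclin E1, was at 1.17, 0.669, 0.849, 2.22 and 0.231 CPM in knockout and 0.661, 1.11 and 3.91 CPM in wild-type libraries (log2 fold change -0.86, SE 0.67, adjusted p = 0.546). Its highest value was that of wild-type library 3, and without that library the log2 fold change was 0.21 (adjusted p = 0.866). Ccne2, for cyclin E2, had 4 to 14 reads per library and a log2 fold change of 0.02 (adjusted p = 0.988, SE 0.45). The activator E2f1 had -0.23 (adjusted p = 0.704, SE 0.28), and E2f8, an atypical E2F that represses S-phase genes and is known for its part in hepatocyte polyploidy, had 0.23 (adjusted p = 0.706, SE 0.28). Knockout liver held 19.8 ± 6.6 CPM of E2f8 (SD, n = 5), wild-type liver 17 ± 5.18 CPM (SD, n = 3), and its groups overlapped.

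Licensing genes divided into those with lower and those with higher values in knockout liver. Mcm2 to Mcm7 encode the 6 subunits of the helicase ring that is loaded at replication origins. Mcm3 was at 7.04, 3.46, 5.47, 5.61 and 5.42 CPM in knockout and 12.8, 12.1 and 5.91 CPM in wild-type libraries (log2 fold change -0.94, SE 0.28, adjusted p = 0.307). Mcm4 was at 6.45, 3.46, 4.05, 4.77 and 4.04 CPM against 9.54, 9.12 and 4.51 CPM (log2 fold change -0.78, SE 0.28, adjusted p = 0.333). For both, wild-type libraries 1 and 2 stood above all other libraries and wild-type library 3 lay among the knockouts. Mcm5 showed the same order, with 5.48, 2.34, 4.24, 3.18 and 4.73 CPM against 10.8, 9.03 and 3.41 CPM (log2 fold change -0.97, SE 0.37, adjusted p = 0.336). Mcm6 was at 11.1, 7.69, 10.7, 8.58 and 9.46 CPM in knockout and 20.8, 14.6 and 7.61 CPM in wild-type libraries (log2 fold change -0.60, SE 0.28, adjusted p = 0.371). In Mcm6 the level of wild-type library 3 was below every knockout library. Mcm2 (7.63, 3.79, 3.68, 4.13 and 4.62 CPM against 7.65, 4.98 and 2.3 CPM, log2 fold change -0.10 (adjusted p = 0.911, SE 0.37)) and Mcm7 (log2 fold change -0.10, SE 0.19, adjusted p = 0.81) were near equal in the group means although their products sit in the same ring, and in Mcm2 knockout library 1 was almost as high as the highest wild-type library. The directions of Mcm2 and Mcm7 turned without wild-type library 1.

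Of the genes that load the ring or control its loading, Cdt1 and Gmnn had positive fold changes and Cdc6 had the order of libraries seen in Mcm3 to Mcm5. Cdt1 brings the helicase to the origin. Its levels were 3.91, 5.35, 5.0, 5.19 and 4.5 CPM in knockout and 3.4, 3.69 and 3.01 CPM in wild-type libraries (log2 fold change 0.52, SE 0.20, adjusted p = 0.337). Every knockout library was above every wild-type library, as in 3.04% of all genes tested, and the gene was not called. Gmnn encodes geminin, the inhibitor of Cdt1, and had a log2 fold change of 0.33 (adjusted p = 0.628, SE 0.31), with 6.26, 10.5, 8.2, 12 and 11 CPM in knockout and 6.7, 4.52 and 11.9 CPM in wild-type libraries, so its 3 lowest libraries were wild-type library 2, knockout library 1 and wild-type library 1. Cdc6, the other loading factor, had 1, 4, 1, 4 and 3 reads in knockout and 18, 13 and 3 reads in wild-type libraries, so only wild-type libraries 1 and 2 had clearly more than 3 reads, the floor used for detection.

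Genes of nucleotide supply and DNA synthesis had small differences. Rrm1 and Rrm2 encode the subunits of ribonucleotide reductase, which makes deoxyribonucleotides. Rrm1 was at 13.7, 11, 11.7, 12 and 12.4 CPM in knockout and 20.1, 15.4 and 12.8 CPM in wild-type libraries (log2 fold change -0.41, SE 0.17, adjusted p = 0.346), and Rrm2 at 3.52, 4.68, 4.05, 6.67 and 5.31 CPM against 9.54, 7.83 and 3.61 CPM (log2 fold change -0.52, SE 0.31, adjusted p = 0.453). Both again had their 2 highest values in wild-type libraries 1 and 2. Pcna, the sliding clamp of DNA polymerases, was at 28.2, 31.7, 29.6, 33.9 and 26.5 CPM in knockout and 34.8, 29.1 and 27.3 CPM in wild-type libraries, with a log2 fold change of -0.02 (adjusted p = 0.955, SE 0.14). Tk1, thymidine kinase, and Tyms, thymidylate synthase, had log2 fold changes of 0.13 (SE 0.21) and -0.06 (SE 0.19). Per gene length, Pcna and Tk1 were also the S-phase genes with the highest levels, at 23.9 and 21.1 RPKM (reads per length and library total) over all libraries, while the median of the 18 genes was 2.54 RPKM.

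Among the mitotic genes the regulators at the top of the programme had low levels and negative fold changes. Foxm1 encodes the transcription factor that drives G2 and mitotic genes. It was at 0.391, 1.11, 1.13, 0.741 and 1.62 CPM in knockout and 4.34, 2.95 and 1.2 CPM in wild-type libraries (log2 fold change -1.45, SE 0.45, adjusted p = 0.325). Cdk1, the kinase that starts mitosis, was at 2.74, 2.9, 1.89, 3.18 and 2.65 CPM against 7.08, 6.45 and 2.9 CPM (log2 fold change -1.04, SE 0.30, adjusted p = 0.301). In both, wild-type libraries 1 and 2 stood apart from the other 6 libraries. Of its cyclins, Ccna2 (cyclin A2) was at 2.74, 2.23, 2.73, 4.13 and 2.89 CPM against 8.69, 7.19 and 2.5 CPM (log2 fold change -1.05, SE 0.36, adjusted p = 0.332). Ccnb1 (cyclin B1) was at 1.37, 1.23, 1.04, 4.45 and 2.19 CPM against 7.55, 7.0 and 1.4 CPM (log2 fold change -1.35, SE 0.57, adjusted p = 0.35), and knockout library 4 was the nearest to the high pair. Ccnb2 (cyclin B2) had a log2 fold change of -0.98 (adjusted p = 0.387, SE 0.48).

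Wild-type libraries 1 and 2 were also the highest for the mitotic kinases and spindle checkpoint genes, except for Bub1. Plk1, a polo-like kinase of mitotic entry and spindle assembly, was at 1.37, 0.446, 0.849, 2.01 and 0.923 CPM in knockout and 4.44, 4.05 and 0.902 CPM in wild-type libraries (log2 fold change -1.50, SE 0.53, adjusted p = 0.333). Bub1b encodes BubR1, which holds the exit from mitosis until chromosomes are attached. Its levels were 2.15, 0.892, 1.04, 1.8 and 1.27 CPM against 4.82, 3.78 and 1.7 CPM (log2 fold change -1.30, SE 0.38, adjusted p = 0.301), while its relative Bub1 had 3 to 15 reads per library and -0.42 (adjusted p = 0.671, SE 0.47). Aurka and Aurkb, the aurora kinases of the spindle poles and of the centromere, had log2 fold changes of -0.85 (SE 0.37) and -0.83 (SE 0.55). Birc5 encodes survivin, the partner of aurora B. Its levels were 1.76, 1.67, 1.79, 3.39 and 2.08 CPM in knockout and 6.04, 4.88 and 2.4 CPM in wild-type libraries (log2 fold change -1.04, SE 0.34, adjusted p = 0.332). Knockout library 4 was again the highest knockout library for Plk1 and Birc5.

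Genes for the exit from mitosis held both the largest difference and the called gene. Cdc20 activates the anaphase-promoting complex, which marks securin and the B-type cyclins for destruction. Cdc20 had 11, 8, 18, 47 and 13 reads in the knockout libraries and 168, 158 and 22 reads in the wild-type libraries, or 2.15, 0.892, 1.7, 4.98 and 1.5 CPM against 15.9, 14.6 and 2.2 CPM. Wild-type libraries 1 and 2 stood far above the rest, and wild-type library 3 lay below knockout library 4. Its log2 fold change was -2.27 (adjusted p = 0.293, SE 0.61), the most negative of the members, and with DESeq2 it was called (adjusted p = 0.0276). Ube2c, the ubiquitin-conjugating enzyme of the same complex, had -0.86 (adjusted p = 0.391, SE 0.43).

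Pttg1 encodes securin, which keeps separase inactive until anaphase. Pttg1 had 17, 39, 50, 47 and 39 reads in the knockout and 121, 156 and 216 reads in the wild-type libraries, or 3.33, 4.35, 4.71, 4.98 and 4.5 CPM against 11.4, 14.4 and 21.6 CPM. All knockout values lay below all wild-type values, as in 3.61% of all genes tested, and the highest value was that of wild-type library 3, which was low for nearly all other mitotic genes. Pttg1 fell from 15.8 ± 5.26 CPM (SD, n = 3) to 4.37 ± 0.632 CPM (SD, n = 5), which is -1.84 on the log2 scale (edgeR adjusted p = 0.00716, SE 0.22). It stayed called with any single library left out (adjusted p 0.00745 to 0.0370), and without knockout library 1 the value was -1.77. With the evenness of coverage along genes as a covariate the log2 fold change was -1.84 and the call was lost (adjusted p = 0.132).

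**Figure D4:**
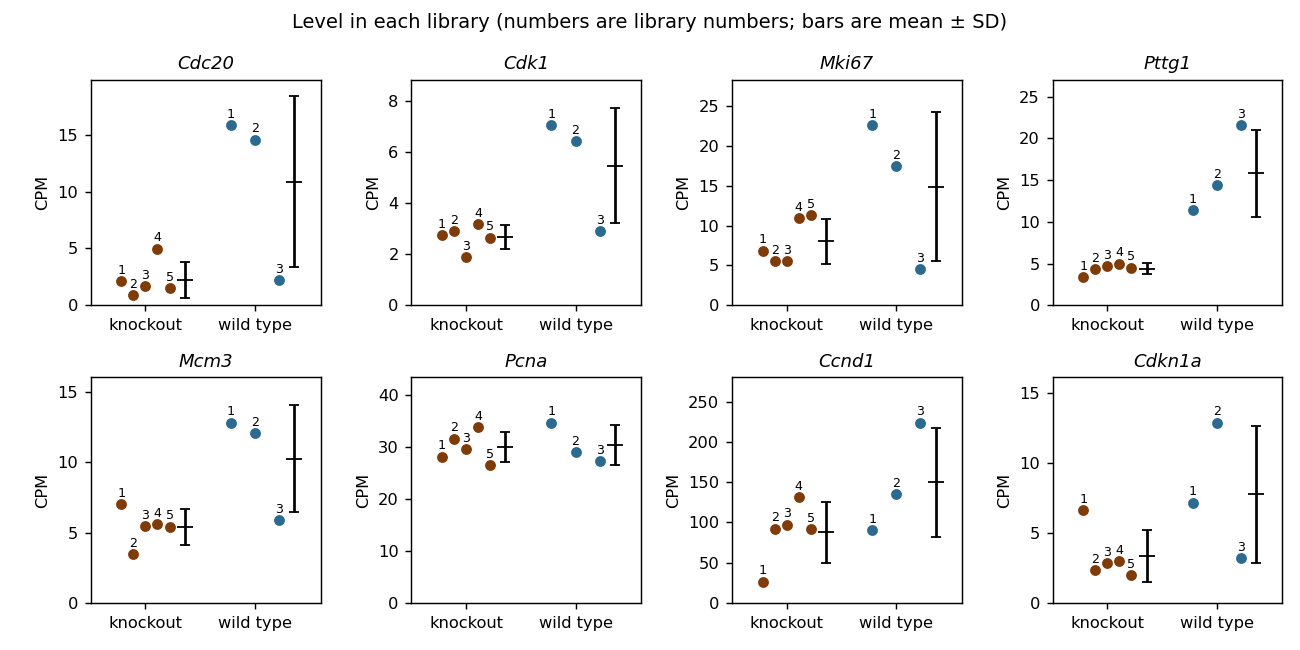
CPM of 8 genes in each library (points, numbered by library; bars are mean ± SD of 5 knockout and 3 wild-type libraries; y axes start at 0). Cdc20, Cdk1, Mki67 and Mcm3 are high in wild-type libraries 1 and 2 alone, Pttg1 is higher in all 3 wild-type libraries, and Ccnd1 is highest in wild-type library 3.

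Motors and spindle proteins followed Cdc20 rather than Pttg1 in the order of libraries. Kif20a, a kinesin of the central spindle, was at 1.76, 1.56, 1.6, 2.54 and 1.04 CPM in knockout and 7.93, 6.36 and 1.7 CPM in wild-type libraries (log2 fold change -1.64, SE 0.44, adjusted p = 0.293). Prc1, which bundles microtubules of the central spindle, was at 2.93, 1.11, 2.17, 2.54 and 3.12 CPM against 7.93, 6.27 and 2.1 CPM (log2 fold change -1.21, SE 0.42, adjusted p = 0.332), and Tpx2, an activator of aurora A on the spindle, at 1.76, 0.557, 1.6, 3.18 and 2.31 CPM against 6.14, 7.46 and 1.8 CPM (log2 fold change -1.44, SE 0.50, adjusted p = 0.332). In all of these wild-type library 3 lay within the knockout range. Racgap1, of the division furrow, had -1.12 (adjusted p = 0.356, SE 0.48). Kif11, the motor that separates spindle poles, had -0.80 (adjusted p = 0.366, SE 0.36), and Nusap1, a microtubule-binding spindle protein, -0.46 (adjusted p = 0.613, SE 0.42). For Nusap1 and Racgap1 the level in wild-type library 3 was below every knockout library.

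Chromosome proteins and proliferation markers had the same pattern. Top2a, the topoisomerase that untangles sister chromatids, was at 6.06, 1.78, 3.58, 4.24 and 4.04 CPM in knockout and 13.8, 9.68 and 3.61 CPM in wild-type libraries (log2 fold change -1.23, SE 0.42, adjusted p = 0.332). Mki67 encodes Ki-67, the standard marker of cycling cells, and was at 6.85, 5.57, 5.56, 10.9 and 11.3 CPM against 22.7, 17.5 and 4.51 CPM (log2 fold change -0.89, SE 0.44, adjusted p = 0.388). Wild-type library 3 was the lowest of all 8 libraries for Mki67, and all knockout libraries lay between it and wild-type libraries 1 and 2. By contrast, Cenpa, the histone variant of centromeres, was at 5.12 ± 1.43 CPM (SD, n = 5) against 6.27 ± 0.137 CPM (SD, n = 3), with a log2 fold change of -0.27 (adjusted p = 0.584, SE 0.23). Cks2, a small subunit of cyclin-dependent kinases, was the only tested mitotic gene with a positive log2 fold change, 0.39 (adjusted p = 0.451, SE 0.23), and per gene length the most abundant of all 46 genes at 40.8 RPKM, against a mitotic median of 1.09 RPKM. Cks2 is also the shortest of the members at 694 bases, and with a correction for gene length its log2 fold change was -0.06. Cdkn3, a phosphatase that acts on Cdk1 and Cdk2, had 1, 1, 3, 8 and 3 reads in knockout and 13, 11 and 4 in wild-type libraries and was not tested.

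**Figure D5:**
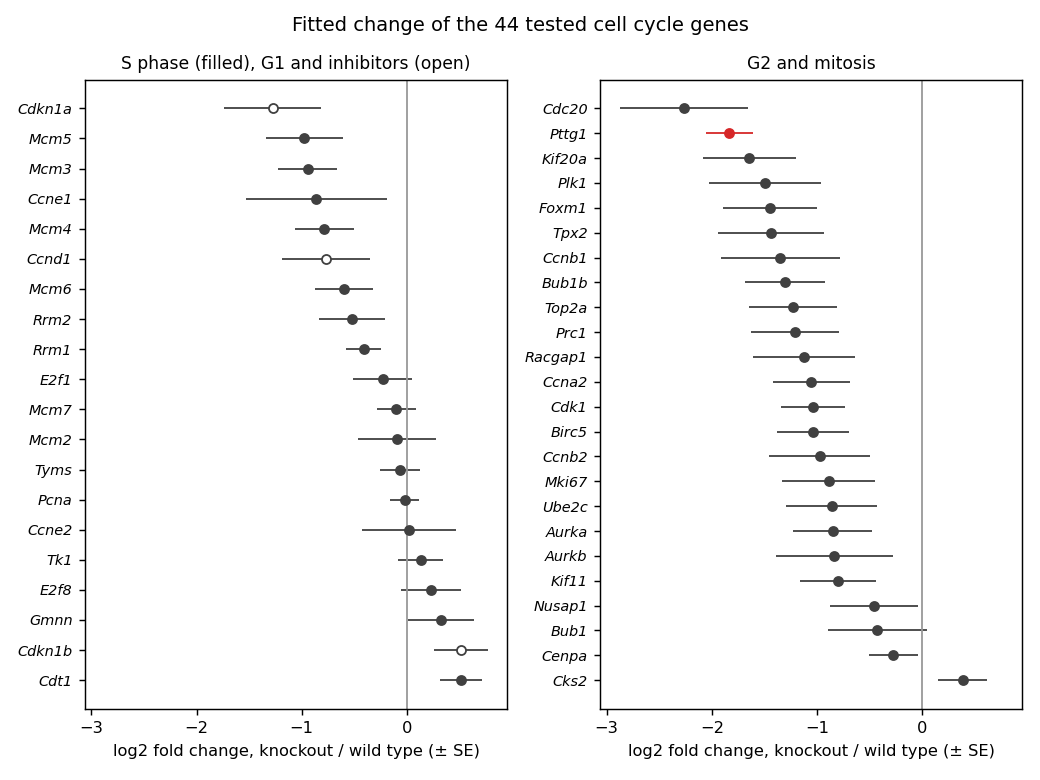
Fitted log2 fold change of the 44 tested genes (x axis, negative when lower in knockout; bars are ± SE; red marks the gene called at an adjusted p of 0.05). Of 24 mitotic genes 23 lie left of 0, and of 17 S-phase genes 12 do.

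Single libraries set how many members were called. Without wild-type library 3, 5 mitotic members were called, all lower: Pttg1, Cdc20 (-2.75, adjusted p = 0.0326), Cdk1 (-1.34, 0.0425), Ccna2 (-1.42, 0.0425) and Kif20a (-2.06, 0.0185), against 0.561% of genes called lower in that fit. The mitotic median was then -1.38 and the S-phase median -0.32. Without knockout library 1 the medians were -1.05 and -0.17, and Pttg1 alone was called among members, against 0.513% of genes called lower. In that fit 13 mitotic and 5 S-phase members were lower at an unadjusted p below 0.05, against 12.3% of all genes, and the log2 fold changes of Mcm2, Cdkn1a, Ccnd1 and Ccnb2 were -0.31, -1.62, -0.54 and -0.76. With wild-type library 3 left out, 21 mitotic members were lower at an unadjusted p below 0.05, against 10.3% of all genes. Without wild-type library 1 the mitotic median was -0.75 and 5 mitotic members were lower at that p, in place of 15, against 2.98% of all genes. Without wild-type library 2 the count was 8, against 3.22% of all genes. DESeq2 called Pttg1 and Cdc20, against 1.03% of genes called in either direction and 0.522% called lower, and gave 17 of 25 mitotic members an unadjusted p below 0.05 with lower values, against 5.85% of genes. A DESeq2 fit that leaves out knockout library 1, added after the data were seen, called 7 members lower, Pttg1, Kif20a, Top2a, Bub1b, Mcm3, Mcm4 and Cdkn1a, against 8.61% of genes called in either direction and 3.09% called lower. With the evenness covariate the mitotic median was -0.80, 2 mitotic members were lower at an unadjusted p below 0.05, against 3.34% of all genes, and 0 members were called. Evenness of coverage was 93.9% and 94.0% in wild-type libraries 1 and 2, 93.5% in wild-type library 3 and 92.3% to 93.8% in the knockout libraries, as the mean percent of gene length covered over 1388 genes with many reads, and its part in the result was not tested beyond that fit.

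Other genes of the same phases gave the same contrast at smaller size. Of 54 further mitotic genes 43 were tested. Of these 37 were negative, with a median of -0.52. At an unadjusted p below 0.05, 13 were lower, against 5.90% of all genes tested, and 0 were called by edgeR. Wild-type libraries 1 and 2 were the 2 highest for 25 of the 43, against 12.3% of all genes tested. Wild-type library 3 lay within the knockout range for 30 of the 43. Mean log2 CPM of all 54 was 2.52, 2.39 and 1.39 in wild-type libraries 1 to 3 and 1.38 to 1.77 in the knockout libraries. Kif22, a chromosome-bound kinesin, was at 1.37, 1.34, 1.13, 1.16 and 1.27 CPM in knockout and 3.59, 2.95 and 1.4 CPM in wild-type libraries (log2 fold change -1.08, SE 0.32, adjusted p = 0.301), and Kif23, a central spindle kinesin, had -0.83 (adjusted p = 0.332, SE 0.28). In both genes, 2 of the 43 and against 3.61% of all genes tested, all knockout values were below all wild-type values. Kif22 was called without wild-type library 3 (log2 fold change -1.38), against 0.561% of genes called lower in that fit. Iqgap3, a scaffold protein of dividing cells, had -1.49 (adjusted p = 0.332, SE 0.51). Of 44 further S-phase genes 38 were tested, 23 were negative, the median was -0.10, 2 had an unadjusted p below 0.05, against 13.6% of all genes in either direction, and 0 were called. Without knockout library 1 that count was 6 of 37, against 25.5% of all genes. Among them Hells, a chromatin remodeller, and Uhrf1, which copies DNA methylation, had -1.11 (SE 0.42) and -0.95 (SE 0.44). Dut, which removes dUTP, was higher in every knockout library, as in 3.04% of all genes tested, at 9.58, 18.6, 12.4, 15.4 and 15.2 CPM against 8.4, 8.48 and 8.51 CPM (log2 fold change 0.76, SE 0.21, adjusted p = 0.293).

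Upstream regulators showed smaller and mixed differences, and 0 of them were called by edgeR. Of 15 tested cyclins, kinases and inhibitors outside the members, 8 were positive and 7 negative (median 0.07), and 2 had an unadjusted p below 0.05, near the 13.6% of all genes. Ccnd2, for cyclin D2, was at 6.85, 5.46, 7.64, 6.04 and 6.35 CPM in knockout and 14.7, 10.8 and 8.31 CPM in wild-type libraries (log2 fold change -0.80, SE 0.21, adjusted p = 0.266). All its knockout values were lower, as in 3.61% of all genes tested. Ccnh and Mnat1, of the kinase complex that activates other cyclin-dependent kinases, had 0.58 (SE 0.29) and 0.60 (SE 0.25). Of 15 tested E2F, pocket protein and MuvB genes 9 were positive (median 0.04, 0 at an unadjusted p below 0.05 by edgeR), among them Rb1 and E2f5 at 0.44 (SE 0.21) and 0.54 (SE 0.28), while E2f3 had -0.39 (SE 0.23). Without knockout library 1, 4 of the first list and 4 of the second had an unadjusted p below 0.05, against 25.5% of all genes, and 7 of the 15 genes of the second list were positive.

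Of 16 tested p53 genes and targets 6 were positive (median -0.21), and 2 had an unadjusted p below 0.05, near the 13.6% of all genes. Btg2, an antiproliferative gene, was at 9.0, 6.91, 6.13, 4.87 and 5.89 CPM in knockout and 13, 15 and 10.6 CPM in wild-type libraries (log2 fold change -0.99, SE 0.21, adjusted p = 0.17). All its knockout values were below the wild-type values, as in 3.61% of all genes tested. Btg2 was called without knockout library 1 (-1.12, edgeR adjusted p = 0.027), against 0.513% of genes called lower in that fit. DESeq2 also called Btg2 (adjusted p = 0.00763), against 0.522% of genes called lower. Ccng1, a p53 target that codes for cyclin G1, had 0.41 (adjusted p = 0.356, SE 0.18). Plk3, a stress-responsive polo-like kinase, was at 18.2, 10.6, 8.39, 11.5 and 8.89 CPM against 6.52, 6.36 and 71.1 CPM, so wild-type library 3 alone was high.

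Hepatocyte growth signals and perinatal genes were the last lists. Of 16 tested growth signal genes 6 were positive (median -0.06, 0 called by edgeR), and 1 had an unadjusted p below 0.05, against 13.6% of all genes. Myc, a transcription factor of growth and cell cycle entry, was at 9.19, 1.67, 3.21, 3.07 and 3.0 CPM in knockout and 2.46, 2.67 and 35.5 CPM in wild-type libraries. Like Ccnd1, Ccne1 and Plk3, it was highest in wild-type library 3. Cyr61, a matrix-associated target of YAP, was higher in every knockout library, as in 3.04% of all genes tested. It was at 11.7, 11.5, 12.2, 11.8 and 14.3 CPM against 8.22, 8.29 and 5.41 CPM (log2 fold change 0.75, SE 0.18, adjusted p = 0.254). DESeq2 called Cyr61 at a value just under the threshold, against 1.03% of genes called in either direction. Il6ra, the interleukin-6 receptor, had -0.38 (SE 0.19). Of 7 genes known to be high in perinatal liver 6 were tested and all 6 were positive (median 0.63, 0 called and 0 at an unadjusted p below 0.05), with Gpc3, a glypican, at 0.93 (SE 0.44), Dlk1 at 0.81 (SE 0.69) and Igf2 at 0.66 (SE 0.62). Without knockout library 1 all 6 were again positive, with a median of 0.91, and 4 had an unadjusted p below 0.05, against 25.5% of all genes in either direction. The summed level of the 7 genes was 19.4, 117, 90.4, 131 and 159.7 CPM in knockout and 59.7, 49.8 and 103 CPM in wild-type libraries, and within the wild-type group it was lowest in libraries 1 and 2.

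Markers of the cells a liver sample can hold were measured beside the cell cycle genes. Hepatocyte markers (8 of 8 tested, none at 0, 2 positive, 6 negative, 0 called) summed to 66698 to 124251 CPM in knockout and 138342 to 150813 CPM in wild-type libraries. The lowest sum was in knockout library 1. Their mean log2 CPM was 11.4, 11.22, 11.46, 11.38 and 11.25 in knockout and 11.69, 11.67 and 11.41 in wild-type libraries. By that mean wild-type library 3 lay within the knockout range, and knockout library 1 was not the lowest. Sinusoidal endothelial markers (10 of 10 tested, all 10 negative, 0 called) summed to 269.5 to 326 CPM in knockout and 349 to 455 CPM in wild-type libraries, and stellate cell markers (8 of 8 tested, all 8 negative, 0 called) to 351 to 522 and 554 to 563 CPM. In these 3 sums the groups did not overlap, and for hepatocyte and sinusoidal endothelial markers wild-type libraries 1 and 2 were the 2 highest. Erythroid markers (11 of 16 tested, 10 positive, 0 called; Ahsp and Rhag at 0 reads in knockout library 1) summed to 94.9 to 234 CPM in knockout and 85.5 to 96.9 CPM in wild-type libraries. Their mean log2 CPM was 0.56, 1.78, 1.39, 2.09 and 2.35 in knockout and 0.98, 0.96 and 1.6 in wild-type libraries, so libraries 1 and 2 of the wild-type group were its lowest, and only knockout library 1 was below them. Neutrophil and myeloid precursor markers summed to 10.4 to 17.5 CPM in knockout and 5.62 to 10.6 CPM in wild-type libraries (4 of 8 matched genes tested, all 4 positive, 0 called). B and plasma cell markers (5 of 8 tested, 1 positive, 4 negative, 0 called) summed to 6.06 to 12.2 and 7.74 to 10.5 CPM. T and NK cell markers (only 2 of 11 tested, 2 positive, 0 called) summed to 6.02 to 10.6 and 6.73 to 7.41 CPM. Kupffer cell markers (10 of 10 tested, 7 positive, 3 negative, 0 called) summed to 553 to 800.4 CPM in knockout and 469 to 639.8 CPM in wild-type libraries. Cholangiocyte markers (5 of 6 tested, 4 positive, 1 negative, 0 called) summed to 8.22 to 24.3 and 9.92 to 14.4 CPM. No marker was at 0 in all libraries. The part of these cells in the levels of the cell cycle genes was not tested.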

How the data were processed

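Liver RNA was column-purified and sequenced on Illumina libraries, per the labels' protocols. The authors deposited a table of 19464 rows with, per the file headers, each gene's count of uniquely mapped reads, the percent of gene length covered and an RPKM value for each library. The labels and headers name no aligner, counting method, strand setting, genome build or annotation (not given in the sources used here). Deposited RPKM values equalled those recomputed from counts, lengths and totals and were used only to compare levels between genes. The deposited coverage percent was used only as a covariate, averaged over genes with at least 500 reads in every library. A dash was read as 0, and rows sharing an identifier were summed (113 identifiers on 229 rows).

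Counts were analysed with edgeR 4.0.16 in R 4.3.3 (filterByExpr defaults, trimmed mean of M values scaling, quasi-likelihood test, Benjamini-Hochberg over 12338 genes, called below 0.05, biological coefficient of variation 24.8%). SE is the log2 fold change over the square root of F. Mean log2 CPM used a prior count of 2. DESeq2 1.42.0 was an alternative. A floor of 3 reads is 0.278 to 0.619 CPM and covers counting error only. On simulated counts over 12198 tested genes, 39 of 98 genes changed 2-fold, 86 of 93 changed 4-fold and 4 of 12007 unchanged genes were called. The changed genes were drawn at random from genes of every level, with noise independent between genes. These rates therefore do not describe how often a change in the members would be called.

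Members and lists were chosen with earlier results of these data known. Of 264 list entries outside the members 263 matched. Per-library values are given for the 8 S-phase and 12 mitotic members with the smallest p, the 3 G1 members, and Mki67, Top2a, Pcna, Mcm2, Ccnb1 and Cdk1, and from each other list up to 3 genes with the smallest p. Promoter sequences are from RefSeq. Figures were drawn with matplotlib 3.10.9.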

Additional observations from a re-analysis of the deposited data

Results flagged for a closer look

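In the knockout group of 5 libraries a single library stood far from the other 4 in 3 of the 46 genes. The rule was a Dixon ratio (gap to the next library over the range) above 0.71. For normally distributed values chance alone marks about 1 in 20 groups, and the count was near that rate. Mcm2 was at 7.63 CPM in knockout library 1, and the next highest knockout library was at 4.62 CPM. Cdkn1a was at 6.65 CPM in the same library, against at most 2.97 CPM in the other knockout libraries. Birc5 was at 3.39 CPM in knockout library 4, against at most 2.08 CPM in the others.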

How the results depend on the processing

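Log2 fold changes of the 44 tested members were recomputed under 17 alternatives, 748 values in all, of which 708 kept their direction and side of the threshold, 11 gained a call, 2 lost one and 27, in 12 genes, turned direction. The mitotic median stayed negative in all 17, from -1.38 to -0.61. The count of called genes, 28, ran from 13 to 114 with single libraries left out and was 8 with the replicate block, 134 with DESeq2, 14 with the evenness covariate and 1057 with DESeq2 after leaving out knockout library 1. Called members ran from 1 to 5 with single libraries left out and were 0, 2, 0 and 7 in those settings.

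Deviations from the group means gave no sign that the labels' replicate numbers paired the libraries. Same-numbered libraries 1, 2 and 3 correlated at 0.12, -0.15 and -0.15, and libraries of unlike number at -0.28 to 0.31. With so few libraries this check cannot exclude a pairing. With the replicate block Pttg1 kept its direction (-1.91) at an edgeR adjusted p of 0.0960, turned values were 0.073 for Mcm2, 0.015 for Mcm7, -0.055 for Tk1 and -0.16 for Igf2, and the p53 median was -0.031. With single libraries left out, medians ran from -0.32 to -0.079 for S-phase members, -1.02 to -0.36 for the G1 members, -0.12 to 0.044 for other S-phase genes, -0.96 to -0.41 for other mitotic genes, -0.040 to 0.10 for E2F and MuvB genes and -0.25 to 0.050 for p53 genes. Turned genes ran from -1.41 to 0.21 (Ccne1), -0.30 to 0.21 (Ccne2), -0.44 to 0.35 (Mcm2), -0.27 to 0.052 (Mcm7), -0.090 to 0.089 (Pcna), -0.14 to 0.010 (Tyms), -0.87 to 0.0073 (Nusap1), -2.32 to 0.57 (Myc) and -1.77 to 0.82 (Plk3). Myc, Plk3 and Ccne1 turned without wild-type library 3, and Mcm2, Mcm7 and Nusap1 without wild-type library 1.

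Under the added DESeq2 setting the medians were -0.23 (S phase), -0.54 (G1) and -0.045 (E2F and MuvB), with Pcna at 0.0028 and Tyms at 0.011. With the evenness covariate the medians were -0.44 (G1), -0.047 (E2F and MuvB) and -0.10 (p53), with E2f1 at 0.0079, Pcna at 0.0061, Tyms at 0.0022 and Cenpa at 0.0039. Combining that covariate with the removal of knockout library 1 gave -0.063 for the p53 median, -0.074 for Gmnn, 0.069 for Mcm2, 0.15 for Mcm7 and 0.049 for Nusap1. With the length correction Tk1 was at -0.025, Tyms at 0.028 and Cks2 at -0.056. With no filter the E2F and MuvB median was -0.017. The cause of these shifts was not tested. Depth limits the least abundant members: 6 of the 46 had 3 or fewer reads in at least 1 library.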
